A study of Mus musculus with 14 samples.

Results

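A microRNA (miRNA) is a short RNA cut from the arms of a hairpin, named -5p or -3p after its arm, that pairs through its seed, bases 2 to 8, with messenger RNAs and lowers their output. Cells release miRNAs into plasma, where they are carried in vesicles and bound to proteins. The amount of RNA in plasma is too low to weigh out, so a plasma miRNA measured by quantitative PCR is given relative to other miRNAs that are taken to be steady, and the choice of these references enters every result. Plasma is free of cells, so a change in the number of cells that release a miRNA and a change in the release per cell cannot be told apart.

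Described here are 9 wells of the PCR panels that read 7 steady plasma miRNAs from 6 miRNA loci, among 389 named miRNAs in all. They are miR-345-5p and miR-324-3p, each read by a mouse (mmu) and a rat (rno) assay, and miR-324-5p, miR-139-5p, miR-484, miR-532-5p and miR-1839-5p, read by the mouse assay. They were chosen on these same mice for their low spread and small group difference, so both are given as a description with no test. All 9 wells were read at or under the background limit of Cq 37 in all 14 mice, 126 values with none missing. By the measures that chose them, all 9 were among the 50 lowest of 276 miRNAs by SD, geNorm M and NormFinder value.

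The samples were plasma of 8 GEMM mice with OS and of 6 wild-type control mice, 1 sample per mouse. GEMM stands for genetically engineered mouse model and OS for osteosarcoma, a bone tumor. By the methods, the OS mice were p53F/+;Cre+ or p53F/F;Cre+, with Cre driven in osteoblasts by a Col-α1(I) promoter fragment so that Trp53 is lost in those cells, and blood was taken by cardiac puncture once a tumor had formed. The controls were age-matched wild-type littermates, which the methods list as p53+/+;Cre+/-, so by the methods both groups carried Cre. The state of the second Trp53 allele and the age of each mouse were not given in the sources used here. Between 13.9% and 24.7% of the 768 wells per mouse were blank. Red blood cell (miR-451, miR-144, miR-486), myeloid (miR-223), liver (miR-122) and vessel wall (miR-126-3p) miRNAs were read in all 14 mice.

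The mature sequences below show what the assays detect, with the seed in capitals, 5′ to 3′, from RefSeq on GRCm38.p6. They were matched for 6 of the 7 steady miRNAs.
mmu-miR-345-5p: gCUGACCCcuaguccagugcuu
mmu-miR-324-3p: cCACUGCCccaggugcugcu
mmu-miR-324-5p: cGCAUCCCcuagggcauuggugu
mmu-miR-139-5p: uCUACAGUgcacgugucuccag
mmu-miR-484: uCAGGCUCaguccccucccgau
mmu-miR-1839-5p: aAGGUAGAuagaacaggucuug
The 6 seeds differ from each other, and no other mature miRNA in the table had any of them. GC content ran from 40.9% in miR-1839-5p to 70.0% in miR-324-3p, around a median of 60.0%, beside a median of 52.2% over 1679 mature miRNAs of the table.

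The 6 loci lay on 5 chromosomes. Both miR-324 arms come from the Mir324 hairpin (chr11:70012043-70012131, + strand), which overlaps Acadvl on the opposite strand. Mir139 (chr7:101475376-101475443, + strand) lies inside Pde2a on the same strand and Mir1839 (chr7:81529916-81529988, + strand) inside the long noncoding RNA 2900076A07Rik on the same strand. Mir345 (chr12:108836973-108837068, + strand) and Mir484 (chr16:14159626-14159692, + strand) overlap no annotated gene. Mir484 lies 348 bases from Marf1. Mir532 (chrX:7248402-7248497, - strand) lies inside Clcn5 on the same strand, in a cluster of 5 hairpins over 10815 bases with Mir188, Mir362, Mir500 and Mir501. Whether the overlaps are with exons or introns was not looked up.

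Levels are given as the Cq of a well subtracted from the global mean of its mouse, a log2 scale on which a higher value means more miRNA. Cq is the PCR cycle at which a well crosses its detection threshold, and the global mean is taken over the 388 miRNAs kept after filtering. The 9 wells had a mean Cq between 28.8 for miR-484 and 31.6 for miR-532-5p, beside a median of 31.2 and a range of 18.8 to 35.8 over the 276 miRNAs. Each assay has its own efficiency, so the mean Cq of a well places it on the panels and does not rank the amounts of different miRNAs.

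The rat assay of miR-345-5p had the lowest spread of all 276 miRNAs measured in every mouse. It read 2.01 at the lowest, 2.50 at the median and 2.71 at the highest in OS mice, against 1.79, 2.45 and 2.69 in control mice. The groups overlapped, with 1 OS mouse above every control mouse. Its SD was 0.303 over the 14 mice, its OS minus control difference 0.16, and it also ranked 1 by geNorm M, at 1.01. M is the mean SD of the log2 ratios of a miRNA to all others. The mouse assay of the same miRNA read 0.63, 1.13 and 1.61 in OS mice, against 0.82, 1.33 and 1.81 in control mice, with an SD of 0.380 (rank 8) and a difference of -0.15. The mouse and rat assays thus differed between the groups in opposite directions, each by less than its own spread.

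miR-139-5p, described as a brake on tumor cell migration in several human cancers, had the second lowest spread. It read 1.84, 2.19 and 2.79 at the lowest, median and highest in OS mice, against 1.63, 2.04 and 2.40 in control mice, with an SD of 0.325. miR-1839-5p, from a hairpin inside a long noncoding RNA, followed at 0.350. It read 0.32, 0.72 and 1.40 in OS mice, against 0.26, 0.67 and 1.19 in control mice. For both, 2 of 8 OS mice were above every control mouse and none was below all of them. Their differences were 0.21 and 0.13.

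miR-484, which lowers the mitochondrial fission protein Fis1 in mouse heart cells, had the smallest group difference of the 276 miRNAs, -0.0014. It read 2.56, 3.17 and 4.00 in OS mice, against 2.70, 3.07 and 3.90 in control mice, with an SD of 0.436 (rank 17). The mean difference was near 0 although mice within each group differed by more than 1 on the log2 scale.

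Both arms of miR-324 were in the set, and miR-324-5p is known to lower Hedgehog pathway genes in human and mouse cerebellar cells. miR-324-5p read 0.22, 0.62 and 1.34 in OS mice, against 0.28, 1.02 and 1.34 in control mice, an SD of 0.388 and a difference of -0.25. The mouse assay of miR-324-3p read 0.84, 1.60 and 2.19 in OS mice, against 0.65, 1.43 and 1.84 in control mice, an SD of 0.488 and a difference of 0.16. The rat assay of miR-324-3p read 0.18, 1.60 and 1.68 in OS mice, against 0.46, 1.23 and 1.54 in control mice, an SD of 0.482 and a difference of 0.11. In the rat assay 5 OS mice were above every control mouse and OS replicate 19 was below all of them, so the near equality of the means came from mice on both sides.

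miR-532-5p, from the X-linked cluster, was the least steady of the set. It read -0.72, 0.60 and 1.03 in OS mice, against -0.48, 0.17 and 0.75 in control mice, with an SD of 0.524 (rank 33) and a difference of 0.25. Here 3 OS mice were above every control mouse and 1 was below all of them.

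**Figure D1:**
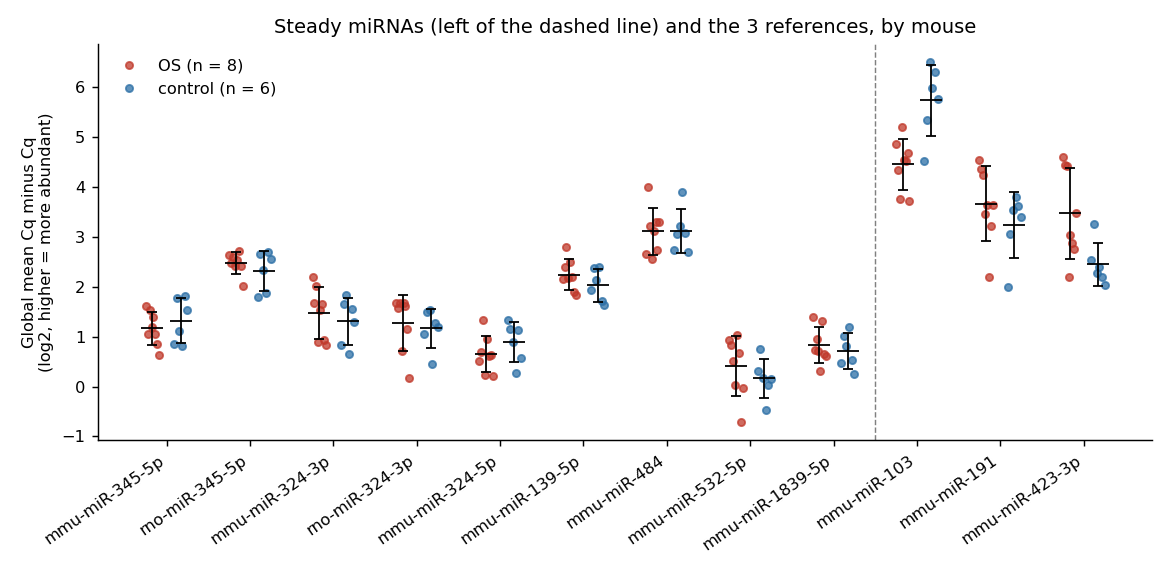
Global mean Cq minus Cq (log2, y axis) of the 9 steady wells and the 3 reference miRNAs, 1 point per mouse, OS to the left of control for each well, with the mean and SD as black bars. The OS and control points of the 9 wells overlap along most of their range, while mmu-miR-103 lies lower and mmu-miR-423-3p higher in OS mice.

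In limma's test of OS against control over 388 miRNAs scaled to the global mean, 12.6% were called at an adjusted p under 0.05, and none of the 9 wells was, nor had any an unadjusted p under 0.05 or a call by the methods' t-test. That contrast chose the wells, so nothing is read from the count. The highest SD of the 9 wells, 0.524, still left 24 of the 267 other miRNAs below it, and 5 of the 10 lowest SDs were of other miRNAs. Of those, let-7b had an SD of 0.369 and the lowest NormFinder value of all, 0.192, and miR-425 had an SD of 0.360 and the lowest M outside the set, 1.02. NormFinder combines the difference between groups with the spread within them. For comparison, the NormFinder values of the 9 wells ran from 0.221 for the rat assay of miR-345-5p to 0.397 for miR-532-5p, against a median of 0.694 over the 276 miRNAs.

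The median SD of the other miRNAs was 0.811 over the 69 with a mean Cq below the range of the steady wells, 0.855 over the 78 within it and 0.950 over the 120 above it, so it was higher at a later Cq. Of the 78 within the range, 5 had an SD under 0.524, the highest of the steady wells.

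**Figure D2:**
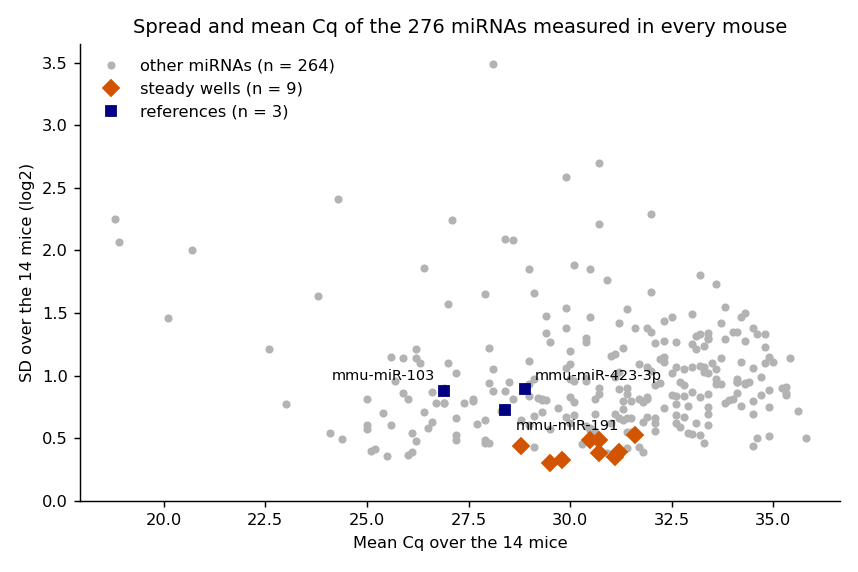
SD over the 14 mice of the normalized value (log2, y axis) against mean Cq (x axis) for the 276 miRNAs measured in every mouse, with the 9 steady wells as diamonds and the 3 references as squares. The diamonds lie between 0.303 and 0.524 along the lower edge of the cloud at mean Cq 28.8 to 31.6, and the squares lie between 0.722 and 0.893.

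The references of the study were miR-423-3p, miR-103 and miR-191, and their values show what the steady wells are an alternative to. By the methods they were identified on 14 GEMM OS and 6 wild-type mice. In its follow-up qPCR the study averaged them with UniSp2, a synthetic miRNA added to the plasma. Scaling to the 3 references here leaves UniSp2 out and rests on 8 OS and 6 control mice. miR-103, a regulator of insulin signalling in mouse liver and fat, read 3.72, 4.53 and 5.20 in OS mice, against 4.53, 5.87 and 6.51 in control mice. It was lower in OS mice by limma scaled to the steady set (difference -1.35, SE 0.39, adjusted p 0.0328), and on that scale 6 of 8 OS mice were below every control mouse. The call held in 6 of 14 fits without 1 mouse (differences of -1.57 to -1.21, limma adjusted p 0.0183 to 0.0858). It was lost without OS replicate 11, 12, 16 or 19 or control replicate 3, 4, 13 or 14, and once the haemolysis marker entered the fit (-0.99, limma adjusted p 0.178), alternatives chosen after seeing the data. miR-423-3p read 2.20, 3.26 and 4.61 in OS mice, against 2.04, 2.34 and 3.27 in control mice, and did not pass (0.96, SE 0.37, limma adjusted p 0.101). miR-191 read 2.19, 3.65 and 4.54 in OS mice, against 2.00, 3.47 and 3.81 in control mice (0.36, SE 0.40, limma adjusted p 0.591). With miR-103 lower and the other two at positive differences, the shifts offset each other in the mean of the 3 references, which lay 3.87 ± 0.489 above the global mean in OS mice (SD, n = 8) and 3.81 ± 0.412 in control mice (SD, n = 6), a difference of 0.05. The mean of the 7 steady miRNAs, in which mouse and rat assays of the same miRNA were averaged first, lay 1.49 ± 0.295 above the global mean in OS mice and 1.43 ± 0.187 in control mice, a difference of 0.07. Over all 14 mice the SD was 0.248 for the steady set, against 0.441 for the 3 references. The wells were chosen in these mice for low spread, and a mean of 7 is set against a mean of 3. These SDs therefore do not rank the sets as references.

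The steady set was not equally level within the groups. In 5 OS mice it lay between 1.65 and 1.82, and in OS replicates 15, 18 and 19 between 1.12 and 1.19, below all 6 control mice, which ran from 1.23 to 1.74. The 7 miRNAs agreed least with each other in control replicate 4, where the SD of their deviations was 0.623, beside 0.169 to 0.448 in the other mice. In that mouse mmu-miR-484 read 3.90, its highest value among controls, and mmu-miR-532-5p -0.48, mmu-miR-324-3p 0.65 and mmu-miR-345-5p 0.82, their lowest.

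Ratios of 2 wells need no global mean. The geNorm M that entered the choice of the wells is built on such ratios, so their low SDs are a description. Over the 36 pairs of steady wells, the SD of the log2 ratio over 14 mice ran from 0.246 to 0.668 with a median of 0.471, beside a median of 1.30 over all 37950 pairs of the 276 miRNAs. The 3 pairs of references had SDs of 0.775 for miR-191 to miR-423-3p, 1.15 for miR-103 to miR-191 and 1.62 for miR-103 to miR-423-3p. Ratios of a steady well to a reference ran from 0.691 to 1.15. The group difference of a ratio was 0.15 in the median and at most 0.50 in size over the 36 pairs, against 0.602 to 2.31 over the 3 reference pairs.

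Among wells of different miRNAs, the tightest ratio was that of the rat assay of miR-345-5p to the mouse assay of miR-324-3p, SD 0.332. This ratio was 1.01 ± 0.385 in OS mice (SD, n = 8) and 1.01 ± 0.281 in control mice (SD, n = 6). The ratio of miR-139-5p to miR-1839-5p was 1.40 ± 0.477 in OS mice and 1.32 ± 0.106 in control mice, with values from 1.18 to 1.46 in control mice. The OS mice, at 0.76 to 2.18, exceeded that band on both sides. Other ratios of miR-139-5p went the other way: the SD of its ratio to miR-324-5p was 0.194 in OS mice and 0.566 in control mice, and to the mouse assay of miR-345-5p 0.244 in OS mice and 0.639 in control mice. In all, 22 of the 36 ratios had the lower SD in OS mice and 14 in control mice. miR-484 was the outer member: its 3 ratios to miR-324-3p and the mouse assay of miR-345-5p had SDs of 0.649 to 0.668. It was not far from every member, since its ratio to miR-139-5p had an SD of 0.414, its lowest. Against the mean of the other 6 steady miRNAs, the SD was 0.497 for miR-484, 0.416 for miR-532-5p and 0.271 for miR-139-5p, the lowest of the 7.

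**Figure D3:**
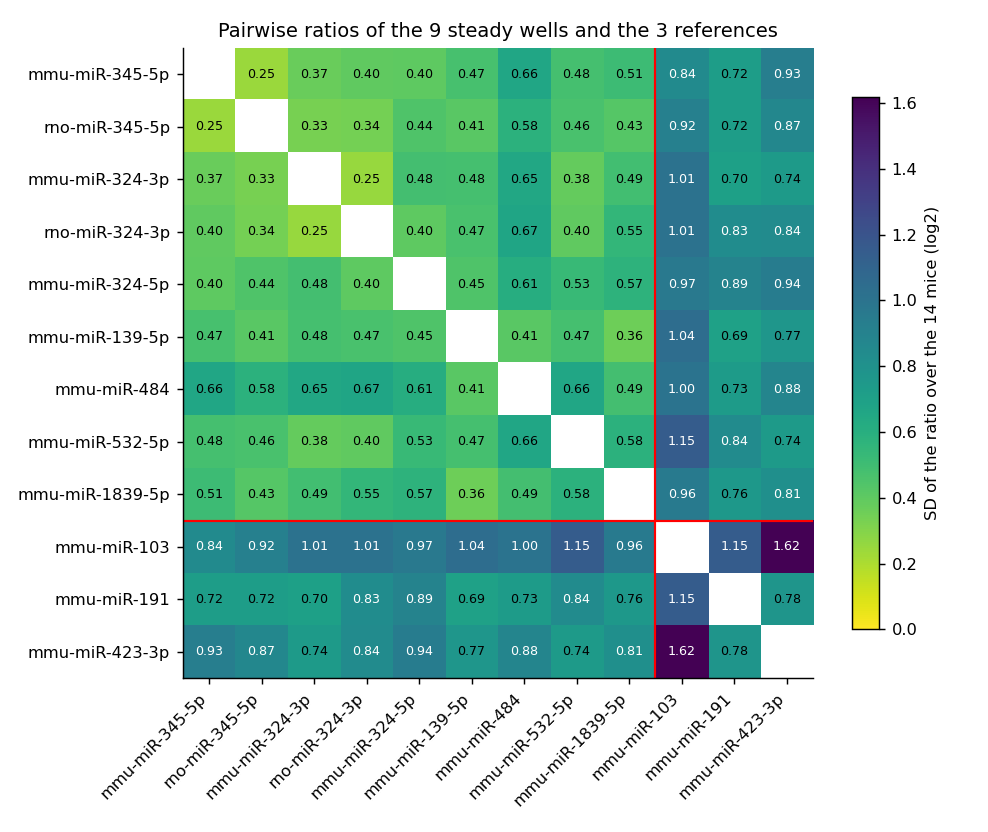
SD over the 14 mice of the log2 ratio of each pair of wells, as colour and number, for the 9 steady wells and, beyond the red lines, the 3 references. Pairs of steady wells lie between 0.246 and 0.668, and the pair of mmu-miR-103 and mmu-miR-423-3p is the widest at 1.62.

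Wells named for the same miRNA in mouse and rat were set against each other. Whether their targets are identical was not checked, so a difference between them is not only assay error. The mouse assay of miR-345-5p read 1.17 cycles later than the rat assay, SD 0.246, and that of miR-324-3p 0.16 cycles earlier, SD 0.253. These SDs ranked 2 and 3 of 22 miRNAs with both assays read together in at least 12 mice, whose median was 0.518. Both wells of each were chosen for low spread in these mice, so nothing is read from these ranks. The offset of miR-345-5p was 1.31 ± 0.230 in OS mice (SD, n = 8) and 1.00 ± 0.128 in control mice (SD, n = 6), a difference of 0.31 between the groups. The rat assay of miR-532-5p, which is not in the set, read 1.17 cycles before the mouse assay with an SD of 0.377, and had an SD over mice of 0.581. The ratio of miR-324-3p to miR-324-5p, arms of the same hairpin, was 0.73 ± 0.375 in OS mice and 0.34 ± 0.415 in control mice.

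A further list held other products of these loci, the rat assay of miR-532-5p and products of other hairpins in the X-linked cluster of miR-532. Most had wider spreads than the steady wells, which was built in because those wells were chosen for low spread in these mice. Of 15 listed, 13 were tested by limma, and none was called in either direction with either scaling, beside 12.6% of all miRNAs under the global mean. An unadjusted p under 0.05 was found for 5 of the 13 under the global mean, beside 30.7% of all miRNAs, and for 3 of the 13 with the steady set, beside 28.9%. The methods' t-test called none of them after adjustment, beside 6.19% of all miRNAs under the global mean. Their median difference was 0.53, beside -0.0027 over all 388. The 10 measured in every mouse had a median SD of 0.642, beside 0.879 over all 276 miRNAs measured in every mouse. The -3p arm of miR-1839 had an SD of 1.13 and a difference of 1.18 (SE 0.50, limma adjusted p 0.125), beside 0.350 and 0.13 for its -5p arm. mmu-miR-139-3p differed by 1.25 (SE 0.45, limma adjusted p 0.0787, 8 OS and 5 control mice). Of the X-linked cluster, rno-miR-501 had the lowest SD, 0.437, and mmu-miR-500 the highest, 0.892. A list of 11 miRNAs often used as plasma references had 10 tested by limma, none of them called, by limma or by the methods' t-test after adjustment. An unadjusted p under 0.05 was found for 5 of the 10 with either scaling, beside the same 30.7% and 28.9% of all miRNAs. Their median SD was 0.626, from 0.360 for miR-425 to 1.28 for let-7a, and their median difference was -0.53.

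Haemolysis, the bursting of red blood cells at blood draw, releases miR-451, and Cq of miR-23a minus Cq of miR-451 is a usual marker of it. A higher marker means more miR-451 relative to miR-23a. The marker averaged 4.19 ± 1.94 in OS mice (SD, n = 8) and 5.77 ± 1.43 in control mice (SD, n = 6), with overlapping ranges of 1.05 to 6.85 in OS mice and 4.11 to 7.21 in control mice. It was not used to choose the wells. Over 14 mice it was related negatively to miR-1839-5p (Pearson r -0.59, permutation p 0.0271; Spearman rho -0.60, permutation p 0.0268), to miR-139-5p (r -0.56, permutation p 0.0360; rho -0.60, permutation p 0.0260) and to miR-532-5p (r -0.54, permutation p 0.0456; rho -0.42, permutation p 0.137). Adjusted over the 7 relations, the permutation p of r was 0.106 for each of these, so none passed. For the remaining miRNAs r ran from -0.31 to 0.02, with adjusted permutation p of 0.442 or more.

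Without OS replicate 10 and control replicate 13, the mice farthest from the median marker, r was -0.38 for miR-1839-5p, -0.64 for miR-139-5p and -0.43 for miR-532-5p, and for miR-484 it was -0.64, beside -0.29 over all mice. None passed after adjustment there either (lowest adjusted permutation p 0.0945). Within OS mice r was negative for all 7 (-0.70 to -0.30), and within control mice it ran from -0.66 to 0.69, with 3 of 7 negative. The mean of the steady set had r -0.54 over all mice (permutation p 0.0476), -0.73 within OS mice (exact permutation p 0.0455) and 0.05 within control mice (exact permutation p 0.904). The difference between the groups in these r was not tested. Scaled to the median Cq in place of the global mean, the relations of miR-139-5p, miR-532-5p and miR-1839-5p (r -0.67, -0.67 and -0.64) passed after adjustment over the 7 (permutation p 0.0313, 0.0313 and 0.0355). As a description, 37.2% of the miRNAs measured in every mouse had a larger r in size than miR-139-5p.

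**Figure D4:**
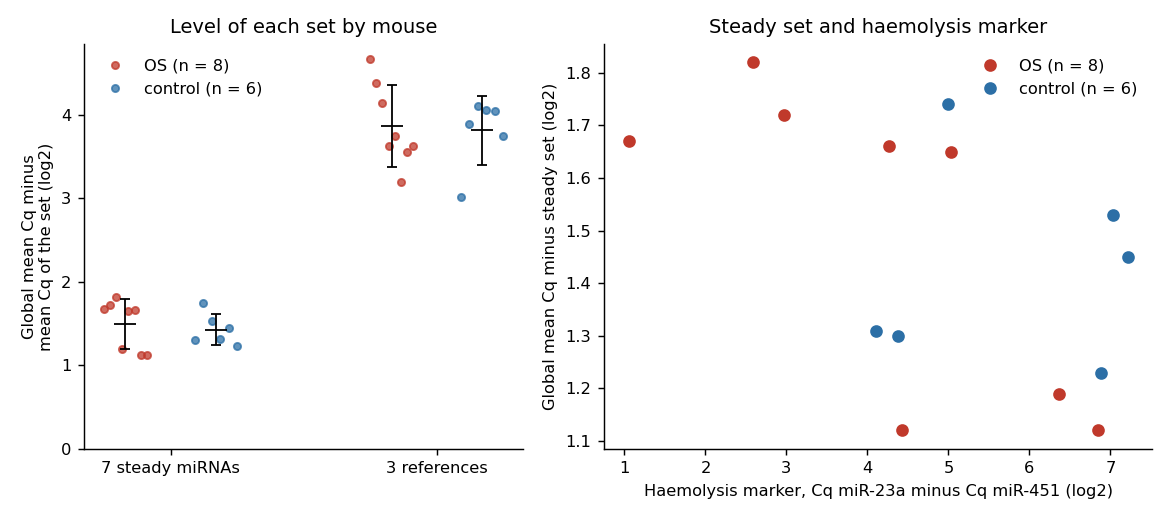
Left, global mean Cq minus the mean Cq of the 7 steady miRNAs and of the 3 references (log2, y axis), 1 point per mouse, OS left of control, with mean and SD. Right, the same quantity for the steady set against the haemolysis marker (log2, x axis), where 5 OS mice lie at 1.65 to 1.82 and 3 at 1.12 to 1.19.

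With the steady set as the reference, limma called 44 of 388 miRNAs (11.3%) at an adjusted p under 0.05, 25 higher and 19 lower in OS mice. With the global mean it called 49, 24 higher and 25 lower, and 43 were called with both, all 43 in the same direction. The set was chosen for a small group difference on the global mean scale, and its own was 0.07. Close agreement of the calls under both scalings was therefore built in. miR-1900 was called only with the steady set (1.92, limma adjusted p 0.0468, against 0.0504 with the global mean). Those called only with the global mean were 6 and all lower in OS mice, among them miR-16-1* (-1.68, limma adjusted p 0.0432, against 0.0596 with the steady set), miR-106b and miR-146b. With the 3 references 33 were called, 22 higher and 11 lower, and unscaled 21, 4 higher and 17 lower. Unscaled, the median difference of the other miRNAs was -0.49, beside -0.08 with the steady set. The median SE of the difference over miRNAs outside the set and the references was 0.482 with the steady set, 0.519 with the 3 references and 0.465 with the global mean.

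The count with the steady set depended on single mice. It was 16 without control replicate 3, 18 without control replicate 14, 28 without control replicate 13, 19 without OS replicate 12, 25 without OS replicate 11 and 68 without OS replicate 15. With the haemolysis marker as a covariate 6 were called. The marker itself differed between the groups (mean 4.19 in OS mice, 5.77 in control mice), so this fit cannot fully separate marker and group. The methods' t-test with Benjamini-Hochberg adjustment called 6 with the steady set and 24 with the global mean.

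Each of the 7 miRNAs was also used alone as the reference. Calls ranged from 29 with miR-484 or miR-532-5p to 47 with miR-139-5p, each miRNA being left out of its own test. The split of calls moved too: with miR-324-5p, whose own difference was -0.25, 28 were higher and 8 lower in OS mice, and with miR-139-5p, whose own difference was 0.21, 19 were higher and 28 lower. The median difference of the other miRNAs was 0.20 with miR-324-5p and -0.25 with miR-139-5p. Leaving 1 of the 7 out of the set gave 43 to 49 calls.

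The study went on to 4 candidate miRNAs, chosen in part by p-value and fold change in its panel screen. The mice here are from that screen, so the limma results below are no independent support for the candidates. Their differences were set out under each reference. miR-205-5p, an epithelial miRNA that holds back the transcription factors ZEB1 and ZEB2, was lower in OS mice under every reference. Scaled to the steady set it read -0.41, 0.09 and 1.25 at the lowest, median and highest in OS mice, against 3.55, 4.47 and 5.07 in control mice. No value overlapped between the groups, as for 1.80% of the 388 miRNAs on this scale and 0.725% of the 276 measured in every mouse. The difference was -4.04 (95% interval -4.82 to -3.27, limma adjusted p 9.69e-07). With single steady miRNAs it ranged from -4.22 to -3.73 and passed in 7 of 7.

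miR-214, which restrains bone formation by osteoblasts in mice, was followed by its mouse assay. Scaled to the steady set it read -1.91, 1.58 and 2.40 in OS mice, against -2.17, -1.52 and 0.04 in control mice. Here 6 of 8 OS mice were above every control mouse, and the difference was 2.16 (95% interval 0.78 to 3.54, limma adjusted p 0.0396). It passed with 4 of 7 single steady miRNAs and with the global mean (2.22, limma adjusted p 0.0457), and did not pass with the 3 references (2.17, limma adjusted p 0.0530). It passed in 4 of 14 fits without 1 mouse (adjusted p 0.0102 to 0.0973), those without OS replicates 15 or 18 and control replicates 1 or 4. With the haemolysis marker as a covariate it was 1.16 (limma adjusted p 0.224), beside -3.90 (limma adjusted p 1.21e-05) for miR-205-5p. The rat assay of miR-214 differed by 2.27 with the steady set (limma adjusted p 0.0304) and 2.34 with the global mean (limma adjusted p 0.0347). Unlike the mouse assay, it also passed with the 3 references (2.28, limma adjusted p 0.0431).

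miR-335-5p, whose gene lies in Mest, read -3.48, -2.16 and 0.01 in OS mice scaled to the steady set, against -4.05, -3.73 and -2.41 in control mice. The difference was 1.39 (95% interval 0.30 to 2.48, limma adjusted p 0.0949), and it passed with none of the 7 single miRNAs. miR-574-3p read 1.04, 3.47 and 4.90 in OS mice, against 0.18, 1.41 and 2.91 in control mice. The difference was 1.69 (95% interval 0.35 to 3.03, limma adjusted p 0.0956), and it passed with miR-324-5p alone (2.01, limma adjusted p 0.0465). For both, 5 of 8 OS mice were above every control mouse. Without OS replicate 15 both passed, miR-335-5p at 1.60 (limma adjusted p 0.0379) and miR-574-3p at 2.01 (limma adjusted p 0.0289). When the haemolysis marker was added to the fit, miR-335-5p was 0.77 (limma adjusted p 0.454) and miR-574-3p 0.86 (limma adjusted p 0.484).

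**Figure D5:**
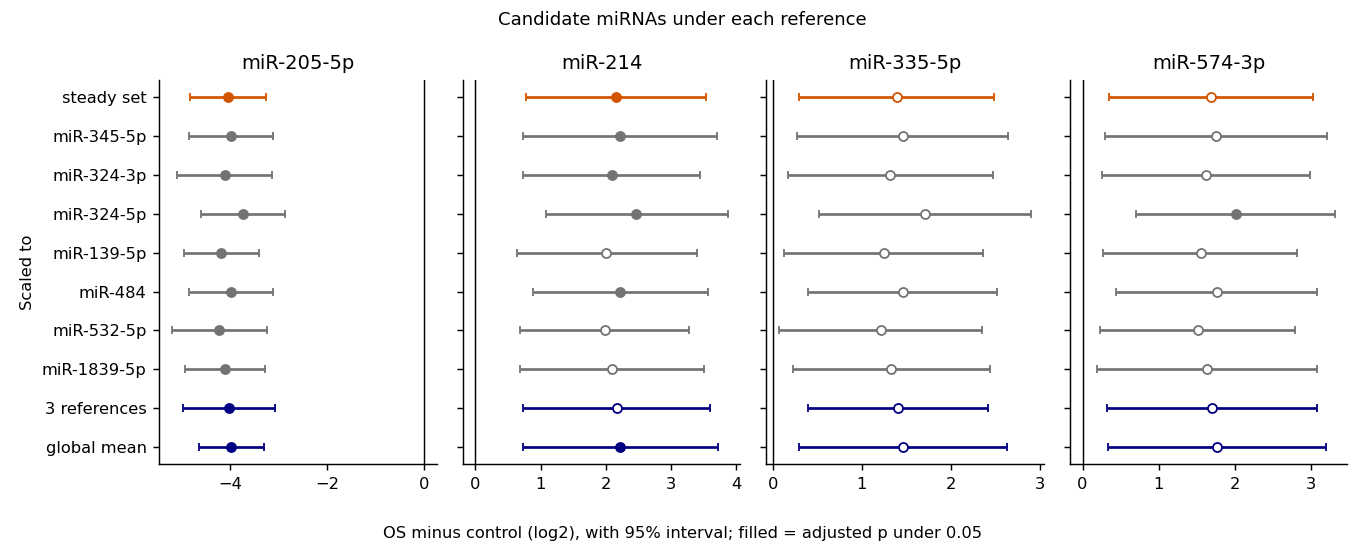
OS minus control difference (log2, x axis, own scale per panel) of the mouse assays of the 4 candidates with its 95% interval, scaled to the steady set, to each of its 7 miRNAs alone, to the 3 references and to the global mean. Filled points have a limma adjusted p under 0.05, which holds for miR-205-5p in every row and for miR-335-5p in none.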

How the data were processed

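The authors deposited Cq values, on a log2 scale, for 768 wells per mouse on Exiqon mouse panels I and II. Whether interplate calibration and outlier removal came before was not given in the sources used here. Of the 14 GEMM OS mice in the methods, 8 were analysed here, with all 6 wild-type mice. The authors' table of fold changes and p-values was used only to name 392 wells. Following the methods, a Cq above 37 was set to missing and miRNAs missing in 75% or more of mice were removed, which kept 388. The global mean used group means, or Cq 38, for missing values. Groups were compared by limma 3.58.1 in R 4.3.3 (two-sided, Benjamini-Hochberg over all miRNAs). M, NormFinder values and permutation tests (100000 resamples, or exact within groups) were computed in Python 3.11.15 with numpy 2.4.6, and tested on simulated data. There are no counts behind a Cq, so precision comes from the spread between mice. The members, the lists and the tests were chosen with earlier results of these data known. Named were the members, their loci, the references and candidates, the steadiest and nearest others, and miRNAs called with only 1 scaling. Alternatives were other scalings, Cq limits, fillings, filters, tests and leaving out each mouse.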

Additional observations from a re-analysis of the deposited data

Results flagged for a closer look

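Among 44 groups of values examined, 2 held a mouse far from the rest of its group, about what chance gives (1 in 20 groups). The rat assay of miR-345-5p read 2.01 in OS replicate 19, while the other OS mice ran from 2.41 to 2.71. OS replicate 19 also had the highest share of blank wells, 24.7%, and the highest global mean Cq, 32.9; their part in this value was not tested. The mean of the 3 references lay 3.02 above the global mean in control replicate 1, while the other control mice ran from 3.74 to 4.11.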

How the results depend on the processing

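No paired analysis was possible because the sample titles give no litter, and the replicate numbers are sample numbers that the groups do not share. The 44 calls with the steady set became 21 on unscaled Cq, 6 with the haemolysis marker as a covariate and 6 by the methods' t-test, and 16 to 68 when 1 mouse was left out. At the stricter limits of the methods (5-fold, adjusted p 0.005) the t-test called 1. The mouse assay of miR-214 was 1.16 with the covariate and 2.17 with the 3 references, past the threshold in neither, and 1.95 to 2.56 with 1 mouse left out. In the same fits miR-335-5p ran from 1.10 to 1.60, miR-574-3p from 1.40 to 2.01 and miR-205-5p from -4.21 to -3.91. The median SD of the 9 wells was 0.852 on unscaled Cq, beside 0.388. The number of relations with the haemolysis marker was 3 when scaled to the median, beside 0. Correlations with the marker that changed sign were those of miR-324-5p (-0.27 without the 2 farthest mice, -0.30 within OS, -0.13 on the median), miR-345-5p (-0.50 within OS, -0.19 on the median), miR-324-3p (0.69 within control, 0.04 unscaled), miR-532-5p (0.08 within control), miR-139-5p (0.0011 unscaled) and miR-484 (0.08 unscaled). The cause of these changes was not tested. The median SD of the 9 wells stayed between 0.372 and 0.403 without any 1 mouse, and the group difference of the steady set against the global mean between 0.02 and 0.13. With the covariate miR-335-5p was 0.77 and miR-574-3p 0.86. Precision is limited by 14 mice.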

Other observations

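For each steady miRNA, the miRNA outside the set whose ratio to it was least variable over 14 mice was let-7b for miR-345-5p (SD of the log2 ratio 0.296), miR-676 for miR-484 (0.323), the rat assay of miR-223 for miR-139-5p (0.341), miR-221 for miR-324-3p (0.344), miR-187 for miR-1839-5p (0.368), the rat assay of miR-532-5p for miR-532-5p (0.377) and the mouse assay of miR-223 for miR-324-5p (0.491). For miR-345-5p, miR-484, miR-532-5p and miR-1839-5p these SDs were below that of the same miRNA against the mean of its 6 companions. The latter SDs were 0.310, 0.497, 0.416 and 0.385. For miR-324-3p, miR-324-5p and miR-139-5p the SDs to the outside miRNA were above it (0.330, 0.392 and 0.271). Each outside miRNA was picked for a low value among the retained miRNAs measured in at least 12 mice.

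Of miRNAs outside the set with a low M or NormFinder value, miR-7a-1*, by the rat assay, had the third lowest M, 1.02, with a difference of -0.48 between OS and control mice, and miR-219-5p a NormFinder value of 0.266 with a difference of 0.04. let-7b read 5.97 ± 0.337 in OS mice (SD, n = 8) and 5.96 ± 0.441 in control mice (SD, n = 6).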
